A study of Homo sapiens with 6 samples.

Results

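The amino acid transporters examined here are 35 genes of the solute carrier (SLC) families SLC1, SLC3, SLC6, SLC7, SLC36, SLC38 and SLC43, taken by name from the 60612 genes in the count table. All 35 had a row in that table, and 27 had enough counts to be tested. Polyadenylated RNA was sequenced from U251 cells, an established human glioma line, in 3 libraries made after TEAD3 knockdown and 3 control libraries. TEAD3 encodes a DNA-binding TEAD factor, which acts with the coactivators YAP1 and TAZ downstream of Hippo signalling. The labels describe transient transfection, mention a plasmid vector as well as an siRNA, place the check of knockdown at about 36 h, and do not say what the control cells received. They do not say that replicates came from separate cultures, so the p-values rest only on how far these libraries differ, and that variation may be technical.

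Amino acids are charged or polar and cross membranes through carriers. Some carriers exchange one amino acid for another, and others draw on sodium or proton gradients to concentrate them. The heteromeric carriers pair a glycoprotein heavy chain, SLC3A2 or SLC3A1, with a light chain of the SLC7 family that forms the transport path. In glioma cells, SLC7A5 is known for uptake of leucine and other large neutral amino acids, SLC7A11 for exchange of glutamate for cystine, and SLC1A5 for glutamine. Several of these genes are known targets of ATF4, which is translated when amino acids run short and in other forms of stress.

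Levels are given as CPM, counts relative to the library total after TMM scaling. Log2 fold changes set the knockdown over the control and carry the standard error (SE) of the fit. A gene is called when the edgeR quasi-likelihood adjusted p, taken over all 17723 genes tested, is under 0.05. Library totals lay between 63145768 and 64808615 counts in the knockdown and between 58344026 and 63685272 counts in the controls. TEAD3 was at 4.70, 8.35 and 6.08 CPM in knockdown replicates 1 to 3, against 14.9, 20.3 and 21.0 CPM in control replicates 1 to 3, so that the log2 fold change was -1.55 (SE 0.218; edgeR adjusted p = 0.0114). Deviations of genes from their mean followed GC content in control replicates 1 and 2 in opposite directions, with Spearman correlations across 17505 genes, which are not independent replicates, of -0.407 and 0.497. In the other 4 libraries this correlation lay between -0.153 and 0.111. RN7SL1, an abundant RNA without a poly(A) tail, was at 60.8, 14.4 and 79.8 CPM in knockdown replicates 1 to 3, against 14.7, 34.5 and 17.6 CPM in control replicates 1 to 3. Of 10 glial or glioma markers, 5 averaged at least 1 CPM in the knockdown and 6 in the controls. VIM, NES, SOX2, SOX9 and SLC1A3 did so in both groups, GFAP averaged 0.572 CPM in the knockdown and 1.46 CPM in the controls, and OLIG2 had no count. The summed glial markers lay between 3799 and 4282 CPM in the knockdown and between 4709 and 5196 CPM in the controls, most of it VIM. KRT8 and KRT18, which are epithelial keratins, were at 179 and 147 CPM in the knockdown and at 206 and 139 CPM in the controls, with EPCAM at no more than 1.28 CPM in any library. Of 4 fibroblast markers COL1A2 and COL1A1 were above 1 CPM, and the list summed to between 964 and 1006 CPM in the knockdown and between 1113 and 1414 CPM in the controls. Nearly all of that sum was COL1A2, at 972 CPM in the knockdown and 1211 CPM in the controls, while COL1A1 was at 13.0 CPM in the knockdown and 9.22 CPM in the controls. Of 3 leukocyte markers CD68 was at 131 CPM in the knockdown and 137 CPM in the controls. PTPRC did not pass 0.122 CPM in any library, and CD3E had no count. The 3 endothelial markers summed to no more than 2.35 CPM in any library. None of the 25 cell type markers was called, and their part in the transporter results was not tested.

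SLC3A2 and SLC7A5, the heavy and light chain of the leucine exchanger LAT1-CD98, were the members that rose after TEAD3 knockdown. They are 2 of the 27 tested members (none fell and 25 were not called), where 0.655% of all genes tested were called, 0.451% as higher and 0.203% as lower. Of the tested members, 22 had a fold change above 0, against 49.8% of all genes tested. The members' median log2 fold change was 0.09, and that of all genes was -0.0012. The members were named with earlier results for SLC3A2 and SLC7A5 in view, so their presence in the list is no independent evidence. In bulk RNA, a change in the number of cells that express a gene and a change in RNA per cell cannot be told apart.

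SLC3A2 (ENSG00000168003, CD98 heavy chain) is a plus-strand gene at bases 62856102 to 62888875 of chromosome 11 (GRCh38). Its transcript was at 397, 325 and 422 CPM in knockdown replicates 1 to 3, against 150, 179 and 180 CPM in control replicates 1 to 3. Every knockdown library lay above every control, and the lowest knockdown library was replicate 2, the one in which RN7SL1 was not raised. Among the controls RN7SL1 was highest in replicate 2, at 34.5 CPM, where SLC3A2 lay between replicates 1 and 3. A link between SLC3A2 and RN7SL1 was not tested. The group means were 381 ± 50.4 CPM in the knockdown and 170 ± 17.0 CPM in the controls (SD, n = 3 each). The change was 2.25-fold (95% interval 1.87 to 2.71), or 1.17 on the log2 scale (SE 0.122; edgeR adjusted p = 0.00211). SLC3A2 was called in all 16 alternative fits, and with a covariate for non-polyadenylated RNA it was at 1.01 (edgeR adjusted p = 0.0119).

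SLC7A5 (ENSG00000103257, the LAT1 light chain) is a minus-strand gene at bases 87830023 to 87869488 of chromosome 16 (GRCh38). It was at 99.4, 110 and 129 CPM in knockdown replicates 1 to 3, against 41.3, 52.5 and 59.9 CPM in control replicates 1 to 3. The groups did not overlap, and within the knockdown the order of libraries differed from that of SLC3A2, with replicate 1 the lowest. The means were 113 ± 15.1 CPM in the knockdown and 51.2 ± 9.34 CPM in the controls (SD, n = 3 each). This was a 2.21-fold change (95% interval 1.76 to 2.76), with a log2 fold change of 1.14, SE 0.146 and edgeR adjusted p = 0.00646. Without knockdown replicate 3 it was not called (1.03, edgeR adjusted p = 0.0559), and it was called in the other 15 alternative fits. SLC7A5 has the pseudogene copies SLC7A5P1 and SLC7A5P2, neither of which passed 0.0499 CPM in any library. An unnamed gene on the opposite strand shares exon sequence with SLC7A5 and had no count in any library.

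**Figure D1:**
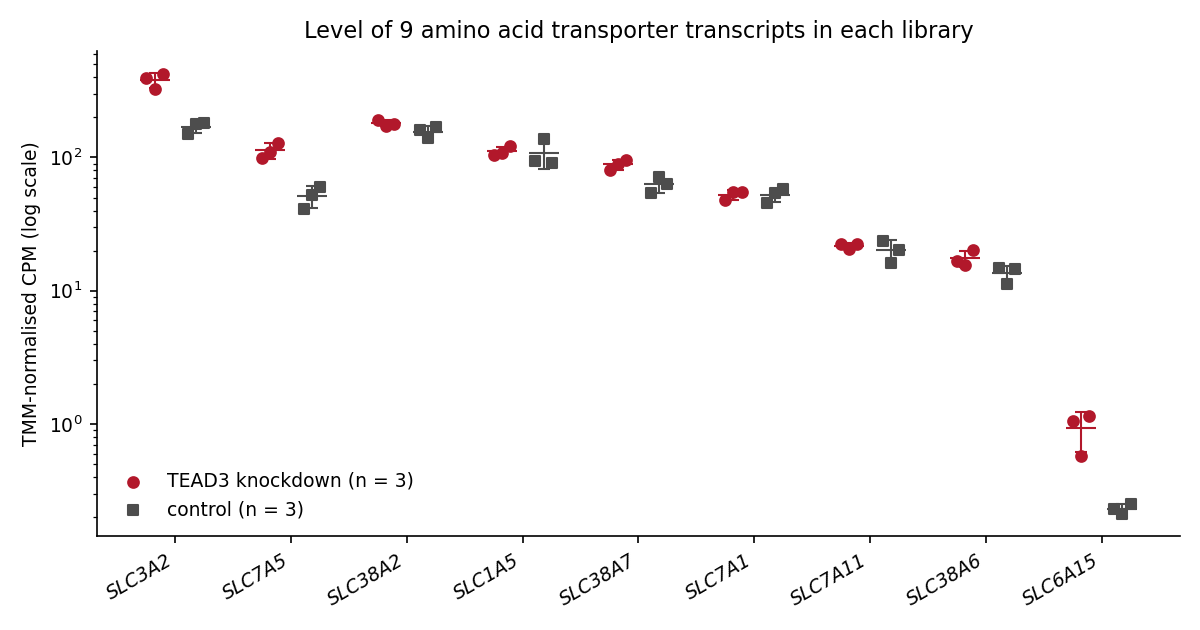
TMM-normalised CPM on a log axis for 9 transporter genes, with 1 point per library, horizontal bars at the mean and error bars of 1 SD (n = 3 per group; circles are TEAD3 knockdown, squares are control). SLC3A2, SLC7A5, SLC38A2, SLC38A7, SLC38A6 and SLC6A15 have no overlap between groups, and of these SLC3A2 and SLC7A5 were called.

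The upstream sequences of these called members are shown because the study concerns a transcription factor. They come from the RefSeq promoter table for GRCh38.p14, which held a window of 250 bases before to 50 after the start for 26 of the 35 members, 45 windows in all. SLC3A2 has 3 annotated starts there. The stretch below is the 250 bases before the most downstream of these starts, at chr11:62881449-62881698 on the plus strand, with a TGACNNNGC match in capitals. The 250 bases before each of the other SLC3A2 starts held no match to a motif searched and are not shown. TGACNNNGC is the core of the antioxidant response element, which NRF2 binds. SLC7A5 has 1 start, and its 250 bases are from chr16:87869508-87869757 on the minus strand, with no complete match to a motif searched.
SLC3A2: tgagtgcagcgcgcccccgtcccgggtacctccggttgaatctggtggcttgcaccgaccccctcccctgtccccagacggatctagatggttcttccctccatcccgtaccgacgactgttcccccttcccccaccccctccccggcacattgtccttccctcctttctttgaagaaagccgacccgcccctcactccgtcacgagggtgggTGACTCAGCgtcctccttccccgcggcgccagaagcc
SLC7A5: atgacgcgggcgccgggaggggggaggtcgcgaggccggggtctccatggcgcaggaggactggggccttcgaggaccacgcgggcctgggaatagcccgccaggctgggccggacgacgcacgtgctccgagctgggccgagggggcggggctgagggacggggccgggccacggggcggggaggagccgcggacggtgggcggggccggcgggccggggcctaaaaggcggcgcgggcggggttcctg

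Motifs were searched on both strands of the full windows. The letters TGATGNAA, the core of the C/EBP-ATF response element bound by ATF4 and CHOP, were found in 5 of the 26 members and in 4.46% of all 27305 genes in the promoter table. The 5 were SLC3A2, SLC1A4, SLC1A5, SLC7A1 and SLC38A1. TGACNNNGC was found in 6 members (SLC3A2, SLC7A5, SLC7A6, SLC7A7, SLC7A1 and SLC1A5) and in 16.1% of all genes. CATTCC, the TEAD motif, was found in 4 members (SLC1A5, SLC38A5, SLC38A6 and SLC43A2) and in 16.7% of all genes. Of these, SLC38A5 was not tested and the other 3 were not called. Of all 35116 windows in that table, 3.62% held TGATGNAA, 13.3% TGACNNNGC and 14% CATTCC. Genes with more windows have more room for a match, and the 26 members had 45. A match describes letters and not binding, and the matches were not tested against the fold changes. The 30-base stretches below show the match in capitals, for SLC3A2 at bases 38 to 45 of the transcript (TGATGNAA on the other strand, chr11:62881719-62881748), for SLC7A5 across the start (TGACNNNGC, chr16:87869490-87869519), and for 3 uncalled members that hold TGATGNAA. These lie at chr2:64989381-64989410 for SLC1A4, chr19:46784893-46784922 for SLC1A5 and chr13:29595663-29595692 for SLC7A1.
SLC3A2: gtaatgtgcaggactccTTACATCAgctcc
SLC7A5: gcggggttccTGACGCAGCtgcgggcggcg
SLC1A4: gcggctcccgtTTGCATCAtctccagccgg
SLC1A5: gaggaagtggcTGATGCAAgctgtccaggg
SLC7A1: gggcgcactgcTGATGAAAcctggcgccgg

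The other light chains of SLC3A2 had fold changes near 0 or were at low levels. SLC7A11 (xCT), the cystine-glutamate exchanger, was at 22.5, 20.4 and 22.5 CPM in knockdown replicates 1 to 3, against 23.8, 16.1 and 20.3 CPM in control replicates 1 to 3. Its groups overlapped, and its log2 fold change was 0.12 (SE 0.149, 95% interval -0.21 to 0.45, edgeR adjusted p = 0.767). SLC7A6 (y+LAT2), which exchanges cationic for neutral amino acids, was at 59.2, 66.0 and 53.5 CPM in the knockdown and at 56.0, 66.6 and 58.1 CPM in the controls, with a log2 fold change of -0.02 (95% interval -0.27 to 0.24, edgeR adjusted p = 0.973). Exons of SLC7A6 overlap SLC7A6OS on the opposite strand, and the counts of SLC7A6 are uncertain where strand was not used. The upper bounds of SLC7A11 and SLC7A6 lie below the lower bound of SLC7A5, which was 0.82. SLC7A7 (y+LAT1) and SLC7A8 (LAT2) averaged 0.301 and 0.303 CPM in the knockdown and 0.291 and 0.297 CPM in the controls. SLC7A10, which carries small neutral amino acids, had no count in any library. Their 95% intervals ran from 0.366-fold to 2.93-fold for SLC7A7 and from 0.304-fold to 3.48-fold for SLC7A8, so a change as large as that of SLC7A5 lay within them. For comparison, a count of 3 in a library equals at most 0.0529 CPM.

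Per kilobase of annotated exons, SLC3A2 was the most abundant of the 35 members in both groups, at 73.6 ± 9.73 CPM per kilobase in the knockdown and 32.8 ± 3.29 in the controls. In the controls SLC1A5 was level with it on this scale, at 32.3 ± 7.92 CPM per kilobase. The difference was smaller than the SD of either gene. The annotated exons of SLC3A2 total 5178 bases, while its longest transcript has 2222. For SLC1A5 these lengths are 3332 and 2882 bases, and for SLC7A5 4745 and 4537. Ranks and ratios between genes therefore depend on the length used, and by longest transcript SLC3A2 would stand further above both. SLC7A5 had rank 4 in the knockdown with 23.8 ± 3.18 CPM per kilobase and rank 6 in the controls with 10.8 ± 1.97. The ratio of SLC3A2 to the sum of its light chains SLC7A5, SLC7A6, SLC7A7, SLC7A8, SLC7A10 and SLC7A11, per kilobase, was 2.46, 1.84 and 2.22 in knockdown replicates 1 to 3, against 1.56, 1.59 and 1.55 in control replicates 1 to 3. All 3 knockdown values exceeded all controls, with a difference of 0.46 on the log2 scale. An exact two-sided permutation test over the 6 libraries gave p = 0.1, the smallest that 3 against 3 allows. Because SLC7A6 and SLC7A11 had log2 fold changes near 0, this ratio restates the changes of SLC3A2 and SLC7A5. It is not a separate result.

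The proportion of the LAT1 light chain to the heavy chain overlapped between groups, while the ratios of SLC7A6 and SLC7A11 to SLC3A2 were lower in every knockdown library than in any control. SLC7A5 per SLC3A2, per kilobase, was 0.274, 0.370 and 0.334 in knockdown replicates 1 to 3, against 0.30, 0.321 and 0.362 in control replicates 1 to 3, with overlapping groups (exact permutation p = 1). SLC7A5 made up 67.2%, 68.0% and 74.2% of the summed light chains in knockdown replicates 1 to 3, against 46.8%, 51.2% and 56.0% in control replicates 1 to 3. SLC7A11 per SLC3A2 was 0.0309 ± 0.00262 in the knockdown and 0.0646 ± 0.0187 in the controls (SD, n = 3 each). SLC7A6 per SLC3A2 was 0.109 ± 0.0267 in the knockdown and 0.243 ± 0.0201 in the controls. Because SLC7A6 and SLC7A11 had log2 fold changes near 0, these ratios and the SLC7A5 share restate the changes of SLC3A2 and SLC7A5. They are not separate results. The shares and these ratios to SLC3A2, other than SLC7A5 per SLC3A2, did not overlap between groups and each gave the smallest exact permutation p of 0.1, or 0.117 when Benjamini-Hochberg adjusted over 7 ratios, of which 6 were chosen after the values were seen.

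**Figure D2:**
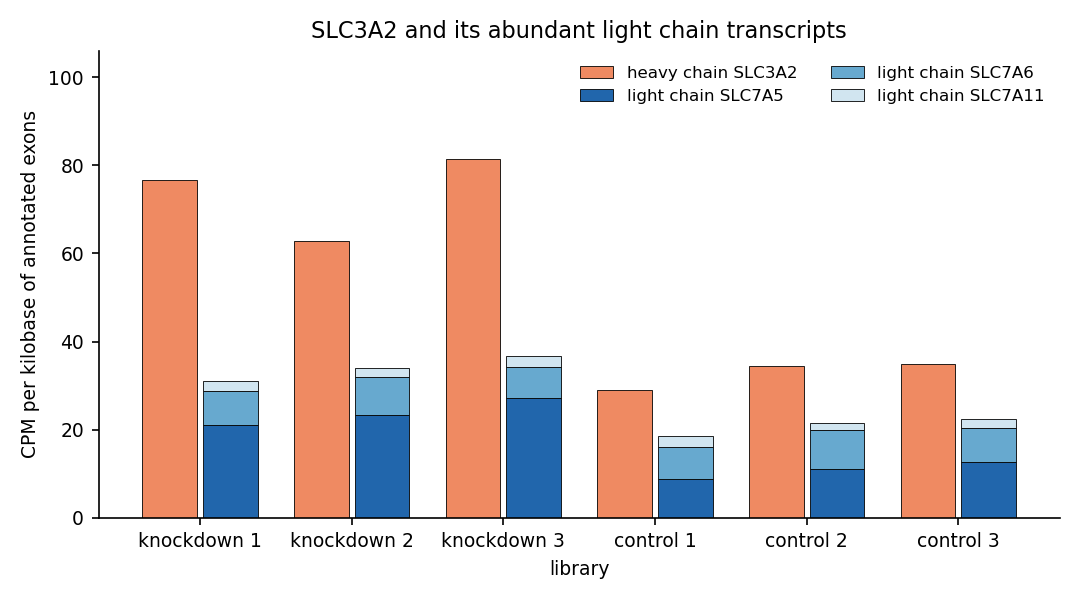
CPM per kilobase of annotated exons in each library for the heavy chain SLC3A2 (left bar of each pair) and, stacked in the right bar, its 3 abundant light chains SLC7A5, SLC7A6 and SLC7A11, with the 3 knockdown libraries left of the 3 controls. SLC3A2 and the SLC7A5 segment are taller in every knockdown library, while the SLC7A6 and SLC7A11 segments keep a similar height.

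SLC3A1 (rBAT), the other heavy chain, and its partner SLC7A9 were not tested because of low counts. SLC3A1 had 36 counts in control replicate 3 and at most 2 in any other library. Its exons overlap PREPL on the opposite strand, which was at 36.6 to 53.2 CPM. SLC7A9 did not pass 0.282 CPM.

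Among the SLC38 carriers, which move glutamine and other neutral amino acids, 3 of the 7 tested had no overlap between groups, all upward, and none was called. Of all genes tested, 21.6% had no overlap and 11.0% had every knockdown library above every control. SLC38A7 (SNAT7), a lysosomal exporter of glutamine and asparagine, was at 80.8, 89.0 and 96.0 CPM in knockdown replicates 1 to 3, against 53.7, 71.2 and 63.7 CPM in control replicates 1 to 3. Its log2 fold change was 0.49 (SE 0.122, edgeR adjusted p = 0.101, unadjusted p = 0.00187). SLC38A7 was called by DESeq2 (adjusted p = 0.0062), with a correction for transcript length and GC content (0.55, edgeR adjusted p = 0.0053) and without control replicate 2 (0.59, 0.0322), and not in the other 13 alternative fits. DESeq2 thus called 3 of the 23 tested members that it gave an adjusted p, where it called 6.11% of the 14274 such genes. SLC38A2 (SNAT2), the sodium-coupled carrier known to be induced by amino acid starvation, was at 191, 173 and 177 CPM in knockdown replicates 1 to 3, against 161, 139 and 168 CPM in control replicates 1 to 3. Its log2 fold change was 0.21 (SE 0.103, 95% interval -0.01 to 0.44, edgeR adjusted p = 0.355).

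SLC38A6, a less characterised member of this family, was at 16.7, 15.6 and 20.2 CPM in knockdown replicates 1 to 3, against 14.8, 11.2 and 14.5 CPM in control replicates 1 to 3. The lowest knockdown library was close to the highest control, and the log2 fold change was 0.38 (SE 0.158, edgeR adjusted p = 0.286). Exons of SLC38A6 overlap TRMT5 on the opposite strand, which was at 14.2 to 19.0 CPM. SLC38A1 (SNAT1), a glutamine carrier, was at 55.1 ± 3.24 CPM in the knockdown and 53.7 ± 9.70 CPM in the controls (0.04, 95% interval -0.26 to 0.33). SLC38A9, the lysosomal arginine sensor that acts with the Ragulator complex, was at 33.2 ± 3.55 CPM in the knockdown and 33.8 ± 3.91 CPM in the controls (-0.03, -0.31 to 0.25). SLC38A10 was at 94.3 ± 6.0 CPM in the knockdown and 89.2 ± 27.5 CPM in the controls, where control replicate 2 stood at 121 CPM. SLC38A3 (SNAT3), typical of astrocytes, averaged 1.76 CPM in the knockdown and 2.63 CPM in the controls, with overlapping groups. SLC38A4 and SLC38A5 were not tested and did not pass 0.124 CPM in any library.

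The neutral amino acid exchangers of the SLC1 family gave overlapping groups. SLC1A5 (ASCT2), the glutamine exchanger, was at 105, 108 and 121 CPM in knockdown replicates 1 to 3, against 94.8, 138 and 90.3 CPM in control replicates 1 to 3. Control replicate 2 was the highest of all 6 libraries, and the transcript of SLC1A5 has 61.3% GC. The log2 fold change of 0.05 (SE 0.152, 95% interval -0.29 to 0.38, edgeR adjusted p = 0.929) was 0.27 when control replicate 2 was left out and -0.06 when control replicate 3 was. SLC1A4 (ASCT1), which exchanges alanine, serine and cysteine, was at 20.5 ± 1.28 CPM in the knockdown and 19.0 ± 1.36 CPM in the controls (0.11, 95% interval -0.16 to 0.37).

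Of the glutamate carriers, SLC1A1 was tested among the members. SLC1A1 (EAAT3), which takes up glutamate and cysteine, was at 24.6 ± 1.65 CPM in the knockdown and 27.1 ± 1.87 CPM in the controls (-0.14, 95% interval -0.39 to 0.11). SLC1A2 (EAAT2), the main glutamate carrier of astrocytes, did not pass 0.152 CPM in any library and was not tested. SLC1A3 (EAAT1), which is not among the 35 members, was at 6.57 ± 0.689 CPM in the knockdown and 4.30 ± 0.359 CPM in the controls (0.61, edgeR adjusted p = 0.157), with no overlap between groups.

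The cationic carriers for arginine and lysine were represented by SLC7A1 (CAT1). It was at 47.7, 55.4 and 55.1 CPM in knockdown replicates 1 to 3, against 45.9, 53.7 and 57.6 CPM in control replicates 1 to 3. The groups overlapped fully, with a log2 fold change of 0.01 (SE 0.117, 95% interval -0.25 to 0.27, edgeR adjusted p = 0.987). SLC7A2 (CAT2) averaged 1.87 CPM in the knockdown and 1.76 CPM in the controls, and SLC7A3 (CAT3) had no count in any library.

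In the SLC6 family, SLC6A15 had the largest fold change of the 27 tested members, at a low level. SLC6A15 (B0AT2) carries proline and branched-chain amino acids in neurons. It was at 1.06, 0.578 and 1.15 CPM in knockdown replicates 1 to 3, from 66, 37 and 75 counts, against 0.229, 0.212 and 0.25 CPM in control replicates 1 to 3, from 15, 12 and 15 counts. Every knockdown library lay above every control, and replicates 1 and 3, in which RN7SL1 was raised, were the highest. Among the controls RN7SL1 was highest in replicate 2, at 34.5 CPM, where SLC6A15 was lowest. A link between SLC6A15 and RN7SL1 was not tested. With the covariate for non-polyadenylated RNA the log2 fold change was 1.63 (edgeR adjusted p = 0.493). Without the covariate the change was 4.01-fold (95% interval 1.88 to 8.54), or 2.00 on the log2 scale (SE 0.496; edgeR adjusted p = 0.101), and SLC6A15 was called in none of the alternative fits that gave an adjusted p.

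The remaining SLC6 carriers had overlapping groups. The creatine carrier SLC6A8 was at 108 ± 7.37 CPM in the knockdown and 98.9 ± 7.50 CPM in the controls (0.13, 95% interval -0.10 to 0.35). SLC6A6, the taurine carrier, was at 29.6 ± 1.75 CPM in the knockdown and 27.8 ± 2.61 CPM in the controls (0.09, -0.16 to 0.35). For the glycine carrier SLC6A9 the levels were 38.8 ± 2.57 CPM in the knockdown and 33.8 ± 7.56 CPM in the controls (0.20, -0.13 to 0.53). SLC6A14, a broad neutral and cationic carrier, did not pass 0.0612 CPM and was not tested.

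The SLC43 carriers take up large neutral amino acids without a heavy chain, apart from SLC43A3, which is known as a purine nucleobase carrier. SLC43A2 (LAT4) was at 11.7, 10.2 and 11.7 CPM in knockdown replicates 1 to 3, against 7.33, 10.5 and 8.14 CPM in control replicates 1 to 3, so that control replicate 2 lay within the knockdown range (0.37, 95% interval -0.01 to 0.75, edgeR adjusted p = 0.331). SLC43A1 (LAT3) averaged 1.09 CPM in the knockdown and 0.603 CPM in the controls, and SLC43A3 averaged 0.599 CPM in the knockdown and 0.516 CPM in the controls, each with overlapping groups. The proton-coupled carriers SLC36A1 and SLC36A4, of which SLC36A1 exports small neutral amino acids from lysosomes, were at 19.1 ± 1.15 and 12.9 ± 0.515 CPM in the knockdown and at 18 ± 2.90 and 14.5 ± 2.44 CPM in the controls. Their log2 fold changes were 0.08 and -0.17.

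**Figure D3:**
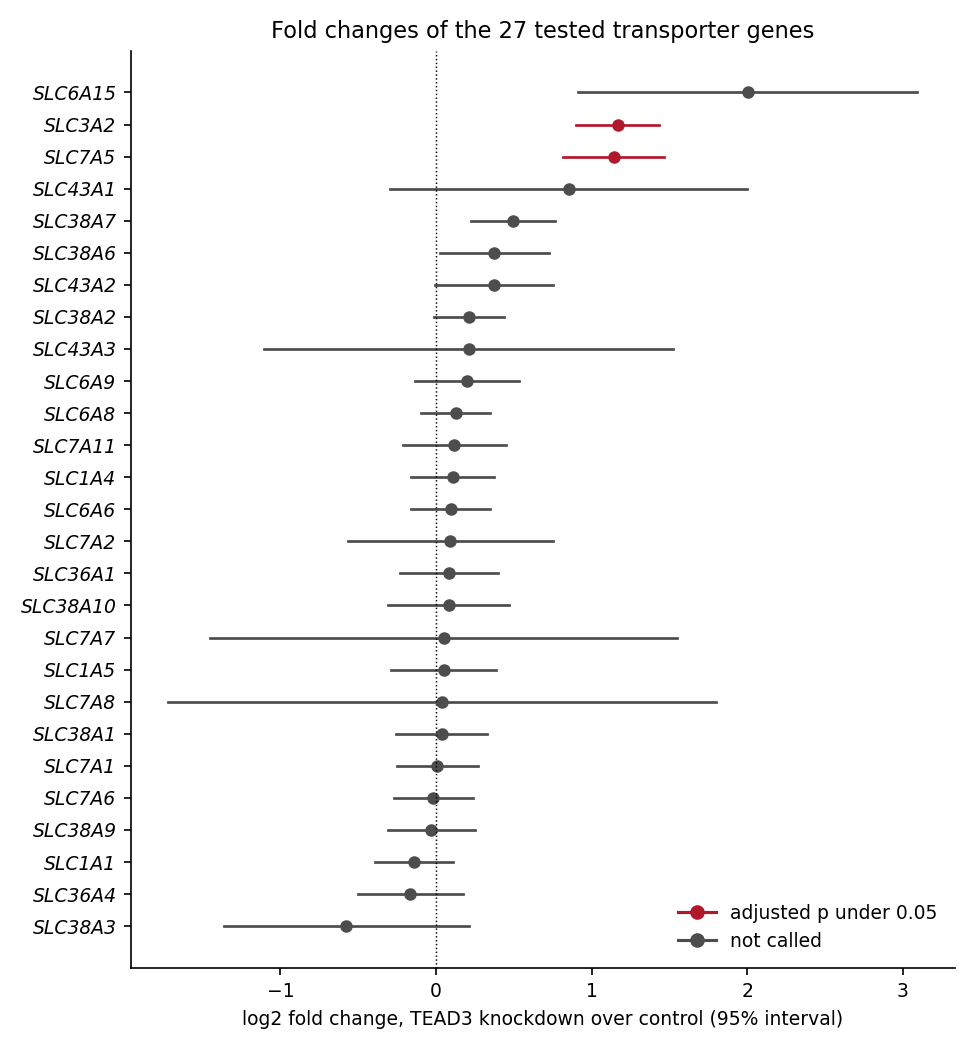
Log2 fold change of TEAD3 knockdown over control for the 27 tested transporter genes, with 95% intervals from the edgeR fit (3 libraries per group). SLC3A2 and SLC7A5, with values of 1.17 and 1.14, are the called genes, SLC6A15 lies further right with a wide interval, and most other members lie close to 0.

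The uncalled members differed in how tightly they were bounded. For 15 of the 25, among them SLC7A11, SLC7A6, SLC7A1, SLC1A4, SLC1A5, SLC38A1 and SLC38A2, the whole 95% interval lay within a 1.5-fold change in either direction. For 20 of the 25 the upper bound lay below the lower bound of SLC7A5, and the exceptions were SLC6A15, SLC43A1, SLC43A3, SLC7A7 and SLC7A8, all at low levels. An unadjusted p under 0.05 was found for 5 members, all higher (SLC3A2, SLC7A5, SLC38A7, SLC6A15 and SLC38A6), against 8.15% of all genes that were higher and 7.43% that were lower at this threshold. In 6 of the 27 every knockdown library lay above every control, and in none below, where 11.0% and 10.6% of all genes tested did so.

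The summed level of the 35 members was 1449, 1418 and 1575 CPM in knockdown replicates 1 to 3, against 1047, 1192 and 1136 CPM in control replicates 1 to 3. SLC3A2 alone made up 27.4%, 22.9% and 26.8% of that sum in the knockdown and 14.3%, 15.0% and 15.9% in the controls. Without SLC3A2 and SLC7A5 the sum was 986 ± 35.4 CPM in the knockdown and 904 ± 53.4 CPM in the controls (SD, n = 3 each), where knockdown replicate 1 at 953 CPM lay below control replicate 2 at 961 CPM. The Spearman correlation of the 27 tested members' deviations with GC content was -0.049, 0.373 and 0.234 in knockdown replicates 1 to 3, against -0.647, 0.47 and -0.258 in control replicates 1 to 3.

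Genes around the transporters were examined in 6 lists. The lists were chosen with earlier results of these data known, so counts within them are no independent evidence. Of 16 regulators of transporter genes, DDIT3 and NUPR1 rose, none fell and 14 were not called, with a list median of 0.11. Of all genes tested, 0.451% were called as higher and 0.203% as lower. In this list 6 genes had an unadjusted edgeR p under 0.05, all higher, where 8.15% of all genes tested were higher at that threshold. Fold changes were above 0 for 10 of the 16 and below 0 for 6. DDIT3, which encodes the stress factor CHOP, was at 102, 81.2 and 89.2 CPM in knockdown replicates 1 to 3, against 51.9, 49.2 and 54.3 CPM in control replicates 1 to 3 (log2 fold change 0.81, edgeR adjusted p = 0.00931). NUPR1, a stress-induced chromatin protein, was at 55.5 ± 7.32 CPM in the knockdown and 34.1 ± 1.94 CPM in the controls (0.70, edgeR adjusted p = 0.029). Neither was called without knockdown replicate 1, without knockdown replicate 3 or in the fit that carries the non-polyadenylated RNA covariate. NUPR1 was also not called without control replicate 1 or 3 or with no filter on low counts. ATF4 itself was at 372 ± 15.0 CPM in the knockdown and 315 ± 5.04 CPM in the controls, with no overlap between groups (0.24, edgeR adjusted p = 0.228).

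None of the 17 tested genes for the use of imported cystine, glutamine and glutamate was called (list median 0.06). GLUL, which makes glutamine from glutamate, had the smallest p of this list, at 126 ± 9.74 CPM in the knockdown and 175 ± 7.31 CPM in the controls (-0.47, edgeR adjusted p = 0.0582). CHAC1, which breaks down glutathione, was at 20.0 ± 4.47 CPM in the knockdown and 11.7 ± 1.17 CPM in the controls (0.77, edgeR adjusted p = 0.0756). Amino acid sensing at mTORC1, with 33 genes tested, had none called and a median of 0.04. RRAGB and SESN3, a Rag GTPase and a sestrin, were at 10.2 ± 0.446 and 8.12 ± 1.08 CPM in the knockdown and at 15.7 ± 1.79 and 13.4 ± 2.30 CPM in the controls (-0.62 and -0.72, edgeR adjusted p of 0.0811 and 0.0995).

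Of the 7 tested lysosomal and vesicular carriers none was called (median 0.02), although SLC17A5, which exports sialic acid from lysosomes, had knockdown libraries between 30.9 and 32.5 CPM, against control libraries between 40.7 and 43.8 CPM (-0.41, edgeR adjusted p = 0.0995). SLC66A1, a lysosomal exporter of cationic amino acids, was at 22.8 ± 0.592 CPM in the knockdown and 17.5 ± 1.32 CPM in the controls (0.38, edgeR adjusted p = 0.163). None of the 13 tested mitochondrial amino acid carriers was called (median 0.0094), with SFXN1, a serine carrier, and SLC25A44, a carrier of branched-chain amino acids, having the smallest p (-0.23 and -0.29, edgeR adjusted p of 0.268 and 0.27). Of 20 further plasma membrane carriers, SLC1A3 and SLC16A10 were tested and neither was called. Over these 5 lists without an edgeR call, 16 of the 72 tested genes had an unadjusted edgeR p under 0.05, of which 10 had fold changes above 0 and 6 below, where 15.6% of all genes tested passed that threshold. DESeq2 gave 69 of these genes an adjusted p and called 7, 3 as higher and 4 as lower, where it called 6.11% of all genes with one.

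**Figure D4:**
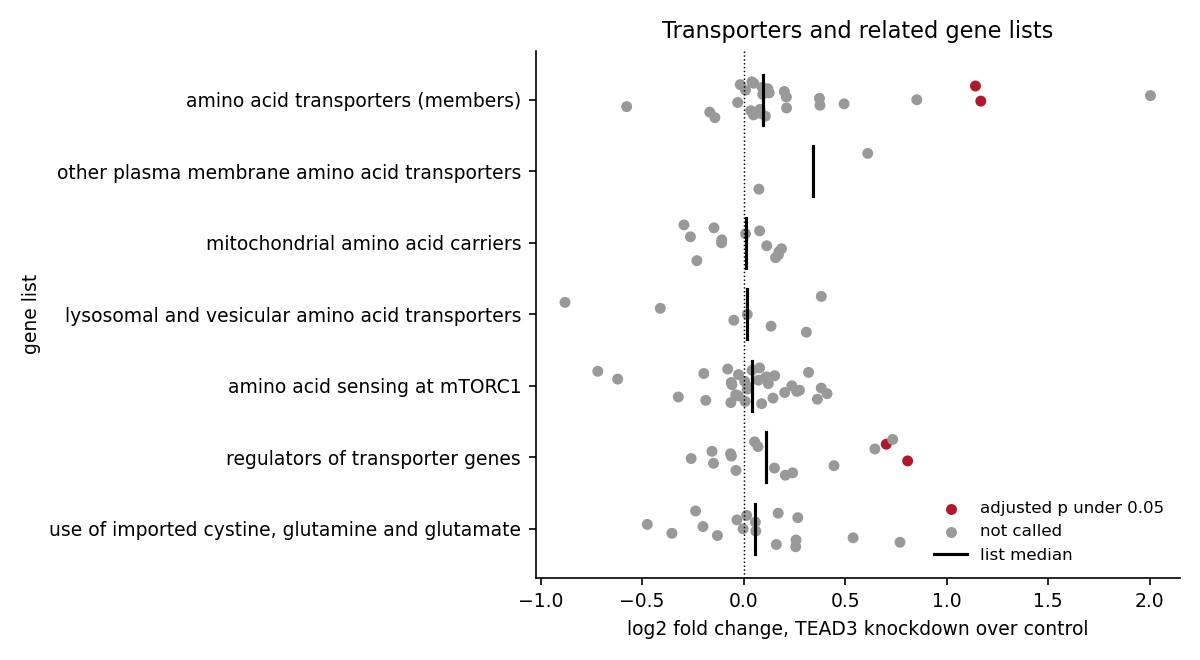
Log2 fold change of TEAD3 knockdown over control for each tested gene of the transporter members and of 6 related lists, with 1 point per gene and a vertical bar at the list median (3 libraries per group). Called genes are SLC3A2 and SLC7A5 among the members and DDIT3 and NUPR1 among the regulators, and the medians of the lists with more than 2 tested genes lie between 0.0094 and 0.11.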

How the data were processed

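Counts per gene in 6 libraries were deposited by the authors as whole numbers, with no scaling. The submitters' processing notes list HISAT2 2.0.4, cutadapt 1.9, StringTie 1.3.4d, edgeR and DESeq2 and build GRCh38. The sources used here do not give the annotation release, strand setting or handling of multi-mapping reads, so overlapping genes are uncertain. Per the labels' protocols, libraries were made from oligo(dT)-captured RNA by the dUTP method. Symbols, coordinates and exon lengths came from GENCODE 29.

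edgeR 4.0.16 in R 4.3.3 was run on the counts with TMM factors, filterByExpr (minimum count 10) and group as the only term, two-sided, with Benjamini-Hochberg adjustment over 17723 genes. Alternatives were other scalings and filters, DESeq2 1.42.0, limma-voom (limma 3.58.1), the replicate number as a block, correction for transcript length and GC by loess (span 0.3), a covariate for 5 non-polyadenylated RNAs, and leaving out each library. The fit was tested on simulated data. Every pair of libraries differed beyond counting noise (chi-square over its degrees of freedom was 17.3 to 69.2). The 95% intervals are for the fold change between groups. They use the SE of the edgeR fit, which rests on the variation between libraries, moderated across genes.

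The members and lists were chosen with earlier results of these data known. Given in full are called members, those at an unadjusted p under 0.05 and SLC3A2, SLC7A5, SLC7A11, SLC1A5, SLC38A2 and SLC7A1. In the other lists every called gene is named, and otherwise up to 2 genes with the smallest p. SLC7A6, SLC43A2 and ATF4 were added after their values were seen.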

Additional observations from a re-analysis of the deposited data

How the results depend on the processing

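SLC3A2 was called in all 16 alternatives, with log2 fold changes from 1.01 to 1.27. The count of called members was 2, and it was 3 by DESeq2 and 3 with the length and GC correction, which also called SLC38A7. When a library was left out it was 1 to 3, falling to 1 without knockdown replicate 3, where SLC7A5 was not called. The number of genes called over the whole table, 116, was 31 with no filter on low counts, 872 by DESeq2, 584 with the length and GC correction, 25 with the non-polyadenylated RNA covariate, and 20 to 589 when a library was left out (20 without knockdown replicate 3 and 589 without control replicate 2). With the replicate number as a block it was 63, and no call among the members changed. Same-numbered libraries did not deviate together (Pearson r of 0.00557, -0.0169 and 0.00828 for numbers 1 to 3). Library-specific deviations, such as those that followed GC content, enter these correlations, so they do not settle whether the numbers pair libraries. Among the other lists 2 genes were called, against 1 with no filter, 5 with the stricter filter, 12 by DESeq2, 8 with the length and GC correction, 0 with the covariate, and 0 to 9 when a library was left out. TEAD3 was not called with no filter (-1.56), with the covariate (-1.44) or without control replicate 3, knockdown replicate 1 or knockdown replicate 3, with values from -1.80 to -1.37 when a library was left out. Fold changes near 0 changed sign: SLC1A5 was at -0.10 with the covariate, and when a library was left out the values ran from -0.0637 to 0.265 for SLC1A5, from -0.0782 to 0.0820 for SLC7A1 and from -0.0190 to 0.259 for SLC7A11. The cause of these moves was not tested. The log2 difference in SLC3A2 over its light chains was 0.60 without length scaling and 0.37 to 0.58 when a library was left out. DESeq2 gave SLC6A15 no adjusted p, and the stricter filter left it untested. At this depth, members under about 1 CPM had intervals wider than the changes of SLC3A2 and SLC7A5.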
